A study of Mus musculus with 4 samples.

Results

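The 10 genes described here make androgens, control their synthesis or mark the cells that do so: Lhcgr, Star, Cyp11a1, Hsd3b1, Cyp17a1, Hsd17b3, Hsd17b1, Srd5a1, Insl3 and Nr5a1. They were picked by symbol and not by their measured values, and all 10 were found among the 32285 genes of the count tables. Droplet single-cell RNA-seq had been run on whole mouse testes at postnatal day 15, when the first wave of germ cells is in meiosis. The 4 libraries were 2 wild type and 2 Meioc-null (Meioc tm1.1Dpc homozygotes), each from 1 pup, and a batch held a wild type and a Meioc-null littermate. Per the study's methods, every pup of both genotypes was on a C57BL/6N background, heterozygous for Hspa2 tm1Dix, and homozygous for a ROSA26 tdTomato reporter whose stop cassette was intact. By the protocol in the labels the interstitium was discarded with a supernatant after the first collagenase step; how many Leydig cells this removed was not measured. MEIOC is a germ cell factor of meiotic entry, and the question asked of these genes is where they were expressed at day 15 and whether their levels in somatic cells differed between the genotypes.

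Leydig cells lie between the seminiferous tubules and make testosterone. Luteinizing hormone binds LHCGR and raises cyclic AMP, STAR then brings cholesterol into the mitochondrion, CYP11A1 cuts it to pregnenolone, HSD3B1 turns pregnenolone into progesterone, CYP17A1 makes androstenedione, and HSD17B3 makes testosterone. The mouse testis holds a fetal and an adult generation of Leydig cells. The fetal cells lack HSD17B3, and fetal Sertoli cells, which have it, finish the last step; immature cells of the adult generation carry much SRD5A1, which reduces testosterone and its precursors, and mature cells carry much HSD17B3. INSL3 is a peptide hormone of Leydig cells that acts in testis descent, HSD17B1 activates estrogens and androgens, and NR5A1 (steroidogenic factor) is the nuclear receptor that drives the steroidogenic genes and is also active in Sertoli cells.

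Promoter sequence was matched in the RefSeq table (GRCm38.p6) for 6 of the 10 genes; Star, Cyp17a1, Hsd17b1 and Nr5a1 were not matched. AAGGTC, the core letters of the NR5A1 half-site, was searched on both strands (GACCTT on the other), and TATAAA likewise (TTTATA). The windows ran from 250 bases before to 50 after the RefSeq start. Of the 6 genes only Insl3 held AAGGTC, at position −136 on the plus strand and −90 on the minus strand counted from the RefSeq start, and 12.3% of 32851 promoters held it at least once. None of the 6 held TATAAA, against 13.6% of promoters. A match of letters is a description and not a binding site. The stretches upstream of both the RefSeq and the GENCODE start are shown for 3 genes: Insl3, which had the highest pooled level in Leydig cells (chr8:71689002-71689213, plus strand), Hsd3b1, which was as concentrated in these cells (chr3:98859795-98860044, minus strand), and Hsd17b3, found mostly in Sertoli cells (chr13:64089231-64089451, minus strand). Capitals mark the searched letters.
Insl3: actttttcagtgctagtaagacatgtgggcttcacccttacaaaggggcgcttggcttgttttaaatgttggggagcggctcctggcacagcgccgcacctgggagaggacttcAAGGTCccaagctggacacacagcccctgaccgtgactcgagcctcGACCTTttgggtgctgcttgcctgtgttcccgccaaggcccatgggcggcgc
Hsd3b1: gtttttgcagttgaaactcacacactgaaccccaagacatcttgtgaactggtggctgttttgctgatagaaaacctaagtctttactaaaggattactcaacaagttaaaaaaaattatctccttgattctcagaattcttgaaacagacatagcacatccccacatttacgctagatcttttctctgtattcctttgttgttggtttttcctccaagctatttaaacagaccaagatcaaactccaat
Hsd17b3: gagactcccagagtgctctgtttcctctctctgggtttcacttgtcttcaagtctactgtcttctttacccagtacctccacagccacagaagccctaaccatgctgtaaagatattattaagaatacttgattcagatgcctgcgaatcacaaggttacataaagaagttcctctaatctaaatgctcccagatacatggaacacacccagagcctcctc

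The files held 158291903 to 190455307 UMIs (unique molecular identifiers, each taken as 1 captured RNA molecule) per library. After the limits of more than 1000 detected genes and under 10% mitochondrial UMIs, and removal of 1207 marked doublets, 28385 cells remained, 6181 to 8031 per library, with library medians of 11716 to 14577 UMIs. Pairs of libraries shared 9 to 16 barcodes, and no Leydig cell of a library shared its barcode with a Leydig cell of another. Meioc itself, the targeted gene, had 291 and 291 CPM (wild type) against 346 and 282 CPM (Meioc-null); the 3′ tags can lie outside the deleted part, so this checks no label. Levels are given in CPM, the UMIs of a gene per 1000000 UMIs of the cells summed; since the assay counts the 3′ ends of molecules, levels were not divided by gene length.

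Leydig cells were rare. The Leydig class was a cluster built without the 10 genes. It was named from 9 other markers: Dlk1, Hsd3b6, Prlr, Scarb1, Fdx1, Fdxr, Hao2, Mgst1 and Cyb5a. Of these, Dlk1 (21.2 CPM), Cyb5a (307) and Scarb1 (154) were higher elsewhere. They had 1052 CPM in interstitial stromal cells, 685 in Sertoli cells and 234 in vascular endothelium, in that order. The Leydig class held 314 of 28385 cells, or 1.11% (exact 95% binomial interval 0.988 to 1.23%, counting error only). It held 65 cells (1.05%) in wild type 1, 98 (1.22%) in wild type 2, 48 (0.660%) in Meioc-null 1 and 103 (1.49%) in Meioc-null 2. The genotypes overlapped (exact permutation test, two-sided, p = 1, where the smallest p that 2 against 2 allows is 0.333). The median Leydig cell carried 15257 UMIs.

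The study called its Leydig cells fetal, from Dlk1 and Cyp11a1. Its cell annotation was not used here, and its named somatic types included no interstitial stromal class. Its Leydig cells and the class described here may therefore not be the same cells. In these files Dlk1 stood at 21.2 CPM in the Leydig class and at 1052 CPM in the interstitial stromal class (Lum, Dpt, Dcn and Pdgfra positive), and 17.5% of Leydig cells had a Dlk1 UMI. Of the other genes associated with fetal Leydig cells, Thbs2 had 5.49 CPM, Mc2r 0.366 and Crhr1 1.10, while Ren1 had 299. Of genes associated with the adult generation, Vcam1 had 767 CPM and Hsd3b6, the isoform of adult cells, 515; Hsd11b1 had 7.50, Slco2b1 1.28, Ptgds 0.731 and Sult1e1 0.366. The adrenal enzymes Cyp11b1 and Cyp11b2 had no UMI (0 of 5468421 UMIs, which allows up to 0.549 CPM each). The markers did not all go with either generation, so the cells are called Leydig without one.

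RNA of Star, Cyp11a1, Hsd3b1 and Cyp17a1, whose proteins lead from cholesterol to androstenedione, was found in Leydig cells at 456 to 969 CPM (pooled libraries; Cyp17a1 in wild type 2 had 65.8), and Hsd17b3 RNA at 3.84 CPM. Summed over the 10 genes, Leydig cells held 3630, 4220, 5021 and 5959 CPM in wild type 1, wild type 2, Meioc-null 1 and Meioc-null 2. The same sum was 139 CPM in Sertoli cells, 44.0 in interstitial stromal cells, 46.2 in peritubular myoid cells, 80.1 in vascular endothelium, 7.33 in macrophages and 13.8 in germ cells, the last being 0.282% of that in Leydig cells. The 2048 cells in clusters left unnamed summed to 185 CPM. Because clusters are made from the same cells, these differences between classes are described and not tested.

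**Figure D1:**
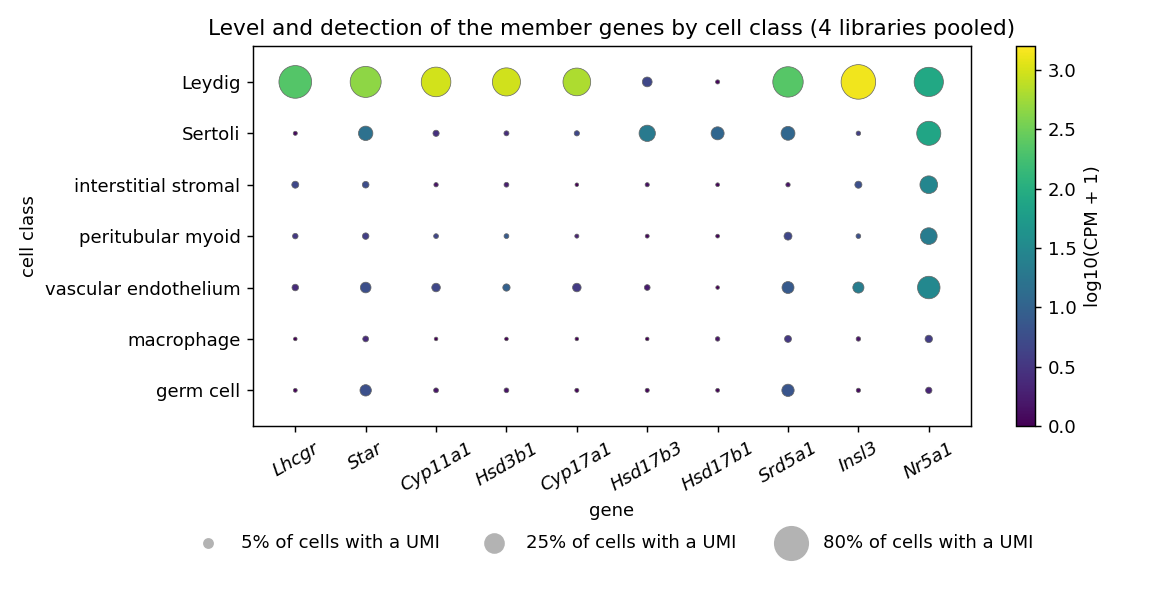
Each point is a gene (horizontal axis) in a cell class (vertical axis), with the share of cells that have a UMI as its area and log10(CPM + 1) over the 4 pooled libraries as its colour. The Leydig row is filled except for Hsd17b3 and Hsd17b1, which are larger in the Sertoli row, and Nr5a1 is spread over all somatic classes but macrophages.

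Lhcgr, the receptor for luteinizing hormone (chr17:88716481-88791990, minus strand, 11 exons), had 135, 251, 316 and 205 CPM in Leydig cells of wild type 1, wild type 2, Meioc-null 1 and Meioc-null 2. A UMI was found in 77.1% of Leydig cells, and the 2 genotypes overlapped. Interstitial stromal cells, next in order, had 1.75 to 6.44 CPM. In the peritubular myoid class 1 cluster of 105 cells had 24.9 CPM of Lhcgr with Cyp11a1, Cyp17a1 and Insl3 at 0.

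Star, the cholesterol carrier (chr8:25806555-25815982, plus strand, 7 exons), had 233 and 138 CPM in the wild type libraries against 834 and 680 CPM in the Meioc-null libraries. It was detected in 69.1% of Leydig cells, and the genotypes did not overlap. Cyp11a1, the side-chain cleavage enzyme (chr9:58006411-58027023, plus strand, 9 exons, overlapping Gm17322 on the same strand), had 1402 and 717 CPM (wild type) against 936 and 961 CPM (Meioc-null). The genotypes overlapped. A pair of Meioc-null 2 cells, with 97586 and 99756 UMIs against a median of 15257 over all Leydig cells, held 784 of that library's 1998 Cyp11a1 UMIs and 921 of its 1902 Hsd3b1 UMIs. Without them Meioc-null 2 had 645 CPM of Cyp11a1, under both wild type values, 521 of Hsd3b1, about the value of wild type 1, and 581 of Star, still above both wild type values.

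Hsd3b1 (chr3:98852194-98859794, minus strand, 4 exons) had 524 and 1061 CPM (wild type) against 1170 and 914 CPM (Meioc-null), again overlapping. Hsd3b6, a close neighbour and near copy (chr3:98805504-98814443), had 647, 312, 567 and 588 CPM in the same order of libraries, and reads that fit both copies may have been dropped or split, so both levels are uncertain. Cyp17a1, which makes androstenedione (chr19:46667165-46673172, minus strand, 8 exons), had 314 and 65.8 CPM (wild type) against 913 and 1172 CPM (Meioc-null). The genotypes did not overlap, and as a ratio the wild type libraries lay further apart in Cyp17a1 than in Star, Cyp11a1 or Hsd3b1.

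Srd5a1, the androgen-reducing enzyme of immature Leydig cells (chr13:69573449-69611442, minus strand, 5 exons, overlapping Gm17108 on the same strand), had 291 and 158 CPM (wild type) against 177 and 258 CPM (Meioc-null). It was detected in 66.6% of Leydig cells, and its Leydig range of 158 to 291 CPM stood apart from the 8.27 to 12.3 CPM of Sertoli cells. Insl3 (chr8:71689214-71690575, plus strand, 2 exons, overlapping Jak3 on the same strand) had the highest level of the 10 genes when the libraries were pooled, 1356 CPM, and was found in 86.3% of Leydig cells. Its level went with the batch: 637 and 605 CPM in the wild type and Meioc-null libraries of batch 1, against 1740 and 1685 CPM in those of batch 2. It ranked first only in the batch 2 libraries; Cyp11a1 was highest in wild type 1 and Hsd3b1 in Meioc-null 1. Nr5a1, the transcription factor (chr2:38692656-38714542, minus strand, 7 exons, with Nr5a1os on the other strand), had 88.5 and 87.6 CPM (wild type) against 69.1 and 78.8 CPM (Meioc-null). The genotypes did not overlap. Sertoli cells had 64.9 to 84.8 CPM, so the 2 classes overlapped in Nr5a1.

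Hsd17b3, whose enzyme makes testosterone (chr13:64058266-64089230, minus strand, 12 exons), was counted with 21 UMIs in all 314 Leydig cells, or 5.77 and 1.24 CPM (wild type) against 1.35 and 5.77 CPM (Meioc-null). In Sertoli cells it had 22.3 and 17.7 CPM (wild type) against 18.6 and 18.1 CPM (Meioc-null). Every Sertoli value was above every Leydig value, and 75.7% of all its UMIs lay in the 1127 Sertoli cells, against 3.98% in Leydig cells. Hsd17b1 (chr11:101078411-101080527, plus strand, 6 exons) had 1 UMI in Leydig cells and 208 in Sertoli cells, where the libraries had 8.61 and 15.3 CPM (wild type) against 5.97 and 9.28 CPM (Meioc-null). Here too every Sertoli value was above every Leydig value, and 77.9% of its UMIs lay in Sertoli cells. Detection was sparse even there, with a Hsd17b3 UMI in 18.5% and a Hsd17b1 UMI in 11.4% of Sertoli cells, whose median depth was 3848 UMIs, against 14946 in germ cells.

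**Figure D2:**
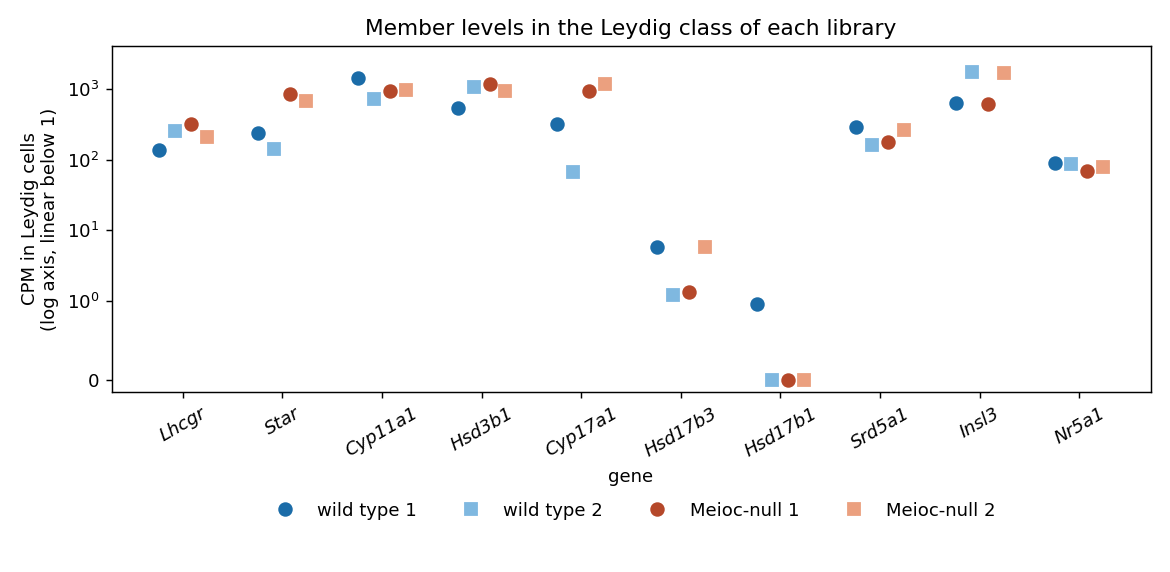
CPM of each gene in the Leydig class of each library, on a log axis that is linear below 1; circles are batch 1 and squares batch 2, blue is wild type and red Meioc-null. Star and Cyp17a1 are the members whose Meioc-null points lie above both wild type points, Insl3 splits by batch, and Hsd17b3 and Hsd17b1 lie under 10 CPM.

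Free RNA from broken Leydig cells can put a UMI into any droplet, but a single source keeps its genes in the ratio they have in Leydig cells. Cyp11a1, Hsd3b1 and Cyp17a1 were therefore summed as a tracer, and the UMIs of each gene in another class were set beside the number that the tracer and the Leydig ratios of the same library gave. Most tracer UMIs in somatic classes came from few cells. In Sertoli cells 108 of 148 tracer UMIs lay in 3 cells, and in myoid cells 326 of 364 lay in 4 cells, with 256 in a single cell; whether these cells were doublets was not tested. Macrophages had 0 tracer UMIs among 194 cells.

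With the cells of 5 or more tracer UMIs left out, 1124 Sertoli cells held 20 UMIs of Cyp11a1 against 16.8 from the single source, and 3 of Insl3 against 16.0. Star, by contrast, had 258 UMIs against 7.22, or 35.8 times the number that source gave (294 against 32.1 with all cells kept). Srd5a1 had 198 against 3.50 from the single source (217 against 12.3 with all cells kept). Nr5a1, Hsd17b3 and Hsd17b1 were further above it, with 1539 UMIs against 1.32, 393 against 0.0496 and 207 against 0.00515. The tracer genes lie near the single source by construction, so Insl3 and Lhcgr (1 UMI against 3.79), which were not used to set it, are the comparison for the genes above it.

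Interstitial stromal cells held 11 tracer UMIs in 923 cells and no Cyp17a1 UMI. Above that level they held 233 UMIs of Nr5a1 (28.3 CPM), 41 of Insl3 against 5.45 from the single source, 38 of Star against 2.37 and 32 of Lhcgr against 1.03. Wild type 1, with 0 tracer UMIs in these cells, held 24 of the Star and 21 of the Insl3 UMIs. By contrast, wild type 2 held 2 of the Star UMIs and Meioc-null 2 held 2 of the Insl3 UMIs. In the peritubular myoid class the left-over 2573 cells held 632 UMIs of Nr5a1, 100 of Srd5a1 against 3.31, 61 of Star against 7.88, 56 of Insl3 against 13.8 and 50 of Lhcgr against 3.08. Leaving cells out by their tracer UMIs lowers the single-source number. With all myoid cells kept, Star had 94 UMIs against 86.3, Insl3 160 against 125, Lhcgr 77 against 38.3 and Srd5a1 122 against 24.3.

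In germ cells, Star and Srd5a1 had low levels that lay far above the single source. In 21062 germ cells Star had 2020 UMIs against 72.4 from the single source, and Srd5a1 had 2456 against 32.6. Cyp11a1 (163 against 151), Hsd3b1 (158 against 136) and Lhcgr (38 against 34.1) were near the single source, and Cyp17a1 (58 against 91.7) and Insl3 (91 against 160) were below it. Of these genes only Lhcgr and Insl3 were not used to set the single source. The genes shared with Sertoli cells were above it at still lower levels, with 438 UMIs of Nr5a1 against 11.9, 62 of Hsd17b3 against 0.506 and 29 of Hsd17b1 against 0.0382; whether these came from free Sertoli RNA was not tested. Because germ cells were so many, 58.0% of all Srd5a1 UMIs and 38.9% of all Star UMIs came from them, although their levels were only 6.03 and 4.96 CPM.

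Srd5a1 in germ cells had 6.48 and 5.79 CPM in the wild type libraries against 5.97 and 5.95 CPM in the Meioc-null libraries, a narrow range. Among germ cell clusters it was highest at 12.3 CPM in a cluster led by mitotic genes and at 11.9 CPM in one led by the spermatogonial stem cell genes Ret and Gfra1, and lowest at 0.743 CPM in a cluster of 466 cells found in the wild type libraries. Star had 4.50 and 4.83 CPM (wild type) against 6.23 and 4.42 CPM (Meioc-null). It lay between 3.05 and 7.32 CPM in the germ cell clusters other than a cluster of 546 cells led by Ppm1k and Rep15, where it had 20.9 CPM (22.0 and 18.9 CPM in the Meioc-null libraries, which held nearly all of its cells). These clusters were chosen after their values were seen.

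**Figure D3:**
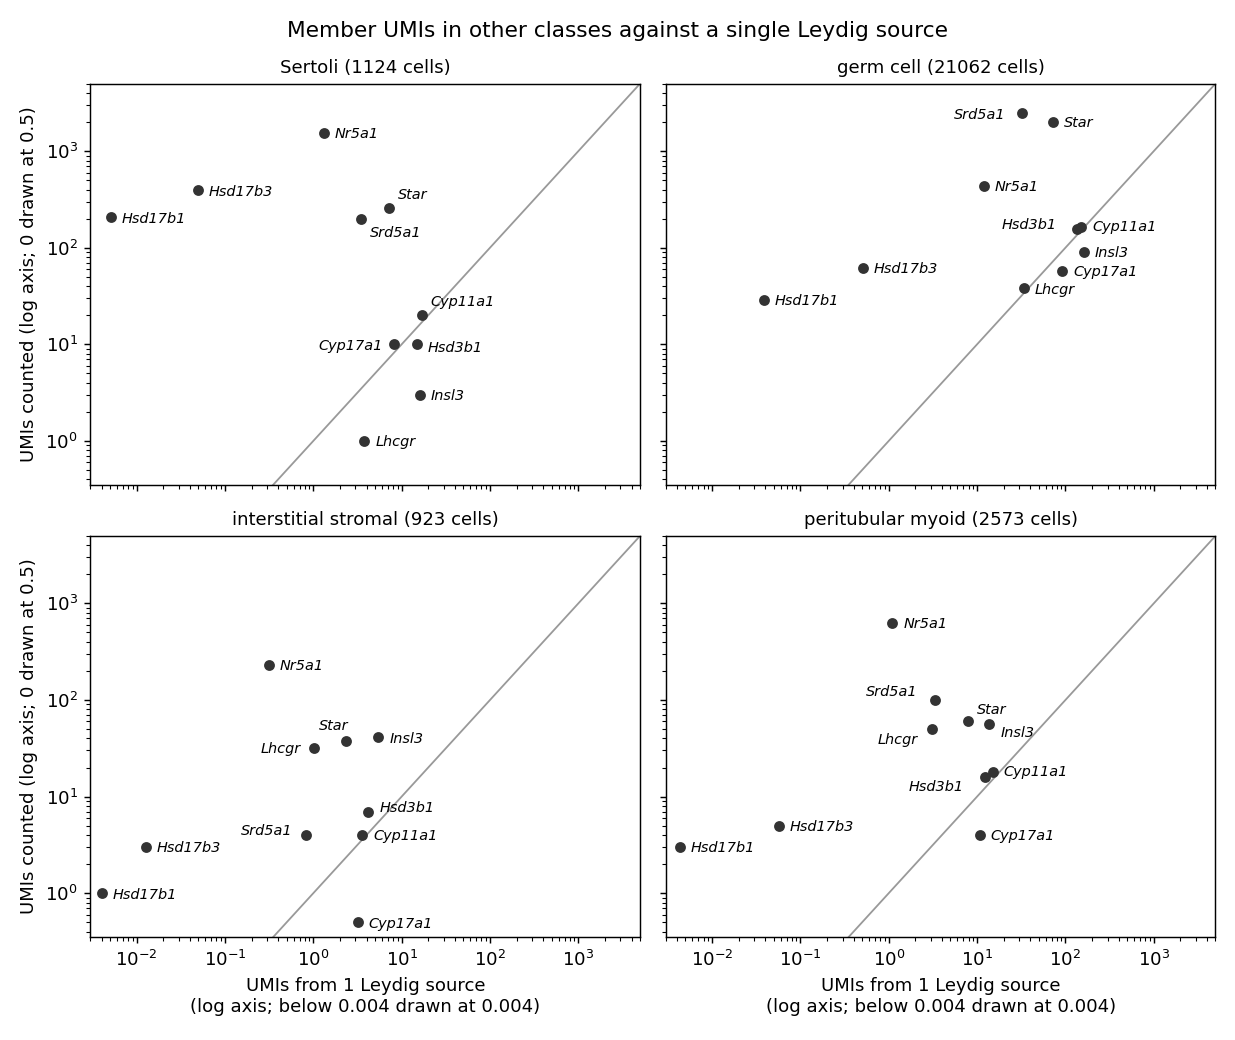
UMIs counted for each gene (vertical axis, log) against the UMIs a single source of free Leydig RNA would give (horizontal axis, log) in 4 classes, without cells of 5 or more tracer UMIs; the line marks equality. Cyp11a1 and Hsd3b1, which set the line together with Cyp17a1, lie near it in all 4 classes, and Nr5a1, Star and Srd5a1 lie above it in all 4. In interstitial stromal cells Srd5a1 rests on 4 UMIs against 0.831. With all cells kept, Star in myoid cells had 94 UMIs against 86.3.

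Within the Leydig class the steroidogenic genes were unevenly spread. Of the 314 cells 108 (34.4%) had a UMI of each of Star, Cyp11a1, Hsd3b1 and Cyp17a1, and 15 had none of the 10 genes. Finer clustering split the class into a sub-cluster of 222 cells and another of 91, with 1 cell elsewhere. The larger held 1224 CPM of Cyp11a1, 1171 of Hsd3b1, 790 of Cyp17a1, 552 of Star, 281 of Srd5a1 and 1607 of Insl3. The smaller held 57.4 CPM of Cyp11a1, 13.5 of Hsd3b1, 143 of Cyp17a1, 114 of Star, 19.4 of Srd5a1 and 462 of Insl3. Its Cyp17a1 rested on few cells: 10 UMIs (15.2 CPM) came from its 50 wild type cells and 159 (301 CPM) from its 41 Meioc-null cells, 127 of them from 4 cells. Lhcgr (249 and 116 CPM) and Nr5a1 (88.0 and 60.7 CPM) differed least between them.

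The smaller sub-cluster also had more RNA of stromal genes: 1722 CPM of Dcn against 315, 789 of Col1a1 against 51.7 and 468 of Pdgfra against 145. Ptch1, the hedgehog receptor, had 352 CPM in it against 52.2. Myoid markers were higher there too, with 583 CPM of Acta2 against 42.8, seen in 33.0 and 17.6% of cells, and 461 of Myl9 against 129, seen in 94.5 and 79.7%. Vcam1 stood at 739 and 775 CPM. At the finer resolution 7 Leydig markers and 4 interstitial stromal markers were seen in 25% or more of its cells. The naming rule, which takes the class whose markers are seen in the highest mean share of cells, gave interstitial stromal, and the sub-cluster is left unnamed here. Its Lum (14.3 CPM) and Clec3b (50.6 CPM) were low for that class. It took 30.8 and 30.6% of the Leydig class in the wild type libraries and 27.1 and 27.2% in the Meioc-null libraries.

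The sub-clusters differed at equal depth too. With every cell thinned to 5000 UMIs (305 cells deep enough, 9 left out), 26.2% of the 214 cells of the larger sub-cluster and 0 of 90 cells of the smaller, which allows up to 3.33%, had all of Star, Cyp11a1, Hsd3b1 and Cyp17a1. In the larger sub-cluster that share differed between libraries, at 30.8 and 7.46% (wild type) against 37.1 and 35.6% (Meioc-null). Insl3 was found in 91.1 and 56.7% of cells, Cyp11a1 in 72.0 and 7.78%, Hsd3b1 in 59.8 and 6.67%, and Lhcgr in 64.5 and 40.0%. Without thinning, 48.2% of the 222 cells and 1.10% of the 91 cells had all of the same 4 genes.

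**Figure D4:**
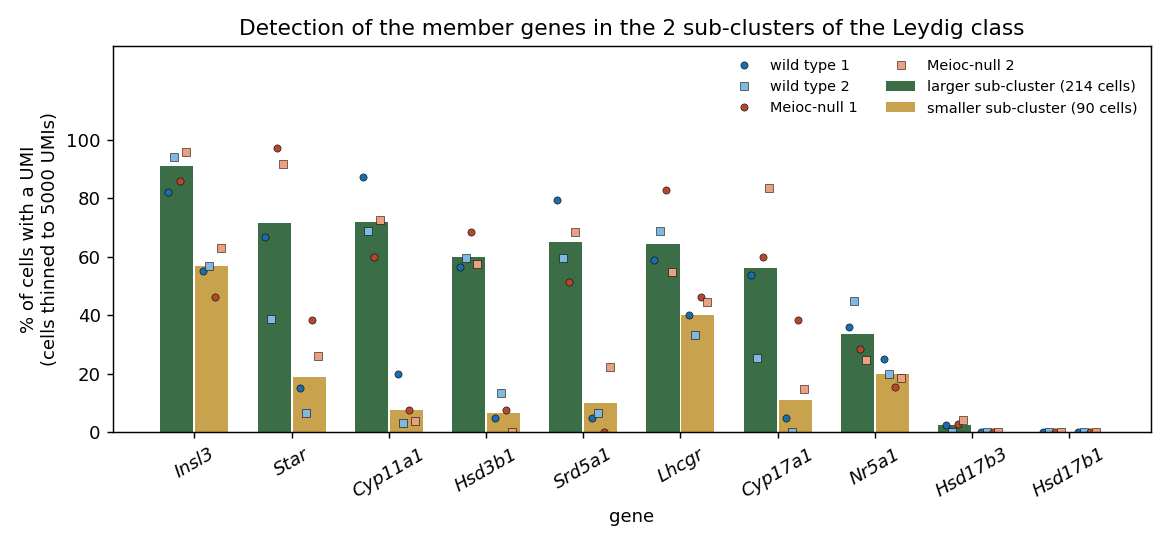
Share of cells with a UMI of each gene (vertical axis, percent) in the sub-clusters of the Leydig class after thinning every cell to 5000 UMIs; bars pool the libraries and points are the single libraries. Cyp11a1, Hsd3b1 and Srd5a1 are detected in over 50% of cells of the larger sub-cluster and in 10.0% or fewer of the smaller.

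The mitochondrial share, which decided which droplets were kept, differed between the sub-clusters. The median Leydig cell of the larger sub-cluster had 6.30% mitochondrial UMIs and that of the smaller 4.17%. Leydig cells under 5% (113 cells) summed to 2244 CPM of the 10 genes and those from 5 to 10% (201 cells) to 6011 CPM. These ranges held the sub-clusters in unequal parts, with 69 of the 113 cells from the smaller and 178 of the 201 from the larger. In the larger alone, the 44 cells under 5% summed to 3973 CPM and the 178 others to 6375 CPM, with Cyp11a1 at 447 and 1383 CPM, Hsd3b1 at 552 and 1297 CPM, Star at 473 and 568 CPM and Nr5a1 at 88.3 and 87.9 CPM.

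Of the 10 genes, Star alone passed the test between genotypes in Leydig cells. Raw UMIs were summed per library and 6441 genes seen in 25% or more of the Leydig cells of a genotype were tested (edgeR's quasi-likelihood test with Benjamini-Hochberg adjustment over all of them, called at an adjusted p under 0.05 and an absolute log2 fold change over 0.1). Of the 8 members tested 1 was called, against a background of 1.54% of all genes (99 called, of which 64, or 0.994%, were higher in Meioc-null and 35, or 0.543%, higher in wild type). With batch as a block 54 genes were called, Star among them. Over the other settings, given below, the count ran from 26 (the doublet step first planned) to 229 (a 20% mitochondrial limit). Hsd17b3 and Hsd17b1 did not reach 25% of cells and were not tested; without that filter neither was called (edgeR adjusted p = 0.900 and 0.869).

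Star was higher in the Meioc-null libraries, with means of 186 ± 66.7 CPM (wild type) and 757 ± 109 CPM (Meioc-null) (SD, n = 2), or 4.08-fold. Its log2 fold change of wild type over Meioc-null was −2.01 (SE 0.23, edgeR adjusted p = 6.76e-06), and within the batches it was −1.84 and −2.29. In the larger sub-cluster alone Star had 277 and 174 CPM in wild type against 961 and 805 CPM in Meioc-null, with a log2 fold change of −1.95 (edgeR adjusted p = 3.50e-10). In Leydig cells under 5% mitochondrial UMIs it had 115 and 24.1 against 513 and 472 CPM, and in those from 5 to 10% it had 294 and 196 against 1047 and 738 CPM. The genotypes were apart in each of these subsets. Without the 2 deepest Leydig cells the value was −1.91 (edgeR adjusted p = 4.31e-05). Clustering anew after a 5% limit on all cells gave a Leydig class of 135 cells, 107 of them in the class described here, and there the value was −2.46 and not called (edgeR adjusted p = 0.218).

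Cyp17a1 had the largest mean difference of the members tested and was not called. Its means were 190 ± 175 CPM (wild type) and 1042 ± 183 CPM (Meioc-null) (SD, n = 2), 5.49-fold apart, with a log2 fold change of −2.48 (SE 1.02, edgeR adjusted p = 0.636). It was lower in wild type in both batches, by −1.54 and −4.13 on the log2 scale. The value depended on the wild type library left out, at −3.95 without wild type 1 and −1.73 without wild type 2. Each of these fits held a lone wild type library, so the spread between the wild type libraries did not enter it. Members other than Star also passed the threshold in such fits, which for that reason is not read as a difference.

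The other 6 members tested were not called. The log2 fold changes were 0.18 (SE 0.26) for Cyp11a1, −0.35 (SE 0.33) for Hsd3b1, −0.36 (SE 0.31) for Lhcgr, 0.03 (SE 0.29) for Srd5a1, 0.07 (SE 0.98) for Insl3 and 0.25 (SE 0.21) for Nr5a1, with edgeR adjusted p from 0.766 to 0.992. Without wild type 2, a fit with a lone wild type library, the value was −0.97 for Hsd3b1 and −0.91 for Lhcgr. The median log2 fold change of the 8 members was −0.16, beside 0.007 over all genes tested.

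Marker genes of other classes within the Leydig cells were measured in the same libraries. The 7 stromal markers summed to 1493 and 1305 CPM (wild type) against 892 and 1177 CPM (Meioc-null), with none at 0. The 5 germ cell markers summed to 79.9 and 32.3 against 43.3 and 16.3 CPM, and the 5 myoid markers to 405 and 842 against 445 and 148 CPM. The 6 macrophage markers summed to 0.962 to 6.77 CPM, with Adgre1, Itgam and C1qa at 0, and the 5 red blood cell markers to 68.3 and 2.48 against 19.0 and 1.44 CPM, with Alas2 at 0. The 9 Leydig markers that named the class, Fdx1 among them, summed to 3490 and 2694 CPM (wild type) against 5381 and 5636 CPM (Meioc-null), and Fdx1 carried the difference: the other 8 summed to 2853 and 2262 against 2596 and 2998 CPM, which overlapped. With the stromal-rich sub-cluster out, the Star difference was as given above; the part of the other markers was not tested.

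Outside the members, 7 of 51 listed genes tested were called in Leydig cells, beside 1.54% of all genes tested. All 7 were higher in Meioc-null, beside 0.994% of all genes in that direction. The lists were chosen with earlier results of these data known, so these shares are a description and not a test of the lists. Fdx1, the ferredoxin that passes electrons to CYP11A1, had 637 and 432 CPM (wild type) against 2785 and 2638 CPM (Meioc-null) (log2 fold change −2.32, SE 0.19, edgeR adjusted p = 1.73e-08). Por, the reductase that serves CYP17A1, had 65.4 and 47.8 against 217 and 157 CPM (−1.69, SE 0.22, edgeR adjusted p = 1.83e-05). These 2 were called of the 6 electron donor genes tested of 6 listed, whose median was −0.20. Fdxr (360 CPM over all libraries, log2 fold change −0.12), Cyb5a (307 CPM, 0.20) and Cyb5r3 (250 CPM, −0.22) were not called.

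Soat1, which stores cholesterol as esters, had 234 and 180 CPM (wild type) against 738 and 598 CPM (Meioc-null) (−1.66, SE 0.20, edgeR adjusted p = 6.76e-06). It was the only call among 21 tested of 22 cholesterol supply genes, whose median was 0.15, and the other genes of that list with the highest levels, Hmgcs1 (500 CPM, 0.16), Fdps (489 CPM, −0.04) and Tspo (260 CPM, −0.09), were not called. Mrap, an accessory protein of the adrenal ACTH receptor, had 106 and 70.2 against 246 and 378 CPM (−1.84, SE 0.25, edgeR adjusted p = 0.000218). It was the only gene tested of 5 adrenal genes; Cyp21a1 had 3.11 CPM and the receptor Mc2r itself 0.366.

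Prkar2b, a regulatory subunit of the kinase that cyclic AMP activates, had 65.4 and 54.6 CPM (wild type) against 226 and 295 CPM (Meioc-null) (−2.12, SE 0.22, edgeR adjusted p = 5.23e-07). Drd4, a dopamine receptor gene listed with the hormone response genes, had 39.4 and 31.7 against 74.5 and 75.0 CPM (−1.07, SE 0.23, edgeR adjusted p = 0.0102, and 0.0722 with batch as a block and 0.275 by DESeq2). These were the 2 calls among 6 tested of 12 genes of gonadotropin and androgen response, whose median was −0.20; Gnas (1524 CPM, 0.07) and Prlr (521 CPM, −0.16) were not called. Crem, a cyclic AMP-responsive transcription factor, had 33.7 and 14.3 against 103 and 79.3 CPM (−1.95, SE 0.29, edgeR adjusted p = 0.000583). It was the only call among 10 tested of 13 regulators, whose median was 0.54; Inha (292 CPM, −0.54), Nr2f2 (220 CPM, 0.34), Pdgfra (216 CPM, 0.72) and Nr4a1 (196 CPM, 0.65) were not called.

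In 3 lists edgeR called 0 genes in Leydig cells, as did DESeq2. They were androgen and steroid conversion (5 tested of 12, 0 at an unadjusted p under 0.05), fetal Leydig-associated genes (1 of 5, Ren1 at 0.48, 0 at that p) and adult Leydig-associated genes (2 of 7, 1 at that p, Vcam1 at 0.50). Over all genes tested in Leydig cells 728 of 6441 had an unadjusted p under 0.05 by edgeR. In the first list Hsd3b6 had a log2 fold change of −0.26, Hsd17b10 (296 CPM) −0.04, Hsd17b12 (81.2 CPM) −0.30 and Hsd17b11 (61.4 CPM) 0.22; Cyp19a1, the aromatase, and Hsd17b6 had no UMI in Leydig cells. With a 5% mitochondrial limit Soat1, Prkar2b, Crem and Drd4 were no longer called, while Fdx1, Por and Mrap were; removal of more doublets ended the call of Mrap and Drd4.

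**Figure D5:**
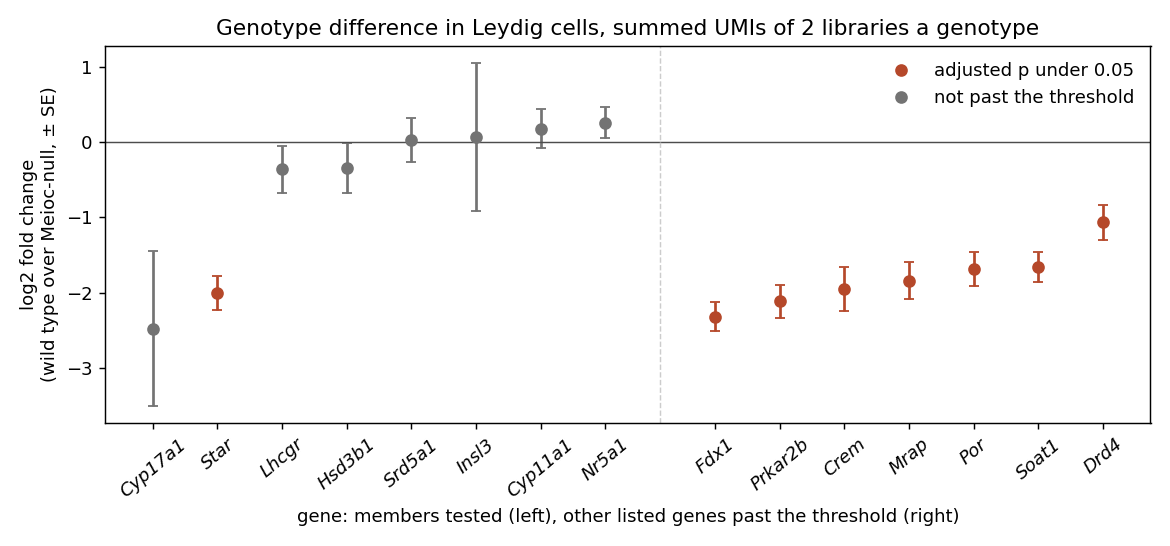
log2 fold change of wild type over Meioc-null (vertical axis; points with bars of 1 SE) in Leydig cells, for the 8 members tested (left) and the 7 other listed genes past the threshold (right). Star and all 7 lie below 0, and Cyp17a1 is as low with an error over 4 times that of Star.

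In Sertoli cells Nr5a1 was the only member with enough UMIs to be tested, and 0 of 1 was called by edgeR or DESeq2, beside a background of 0.0155% (1 of 6472 genes, the germ cell gene Stra8). Its log2 fold change was 0.02 (edgeR adjusted p = 1.00, unadjusted p not under 0.05). With batch as a block 24 genes were called in Sertoli cells, Nr5a1 not among them. Without a filter on low counts Star, Cyp17a1 and Hsd3b1 of the 10 members were called there as higher in Meioc-null. That was beside 99 of 19177 genes called, 60 of them higher in Meioc-null. With a filter on mean UMIs (10 or more per library) Cyp17a1 alone of 7 members tested was called, in the same direction (edgeR adjusted p = 0.0403). There 9 of 11608 genes were called, 5 of them higher in Meioc-null. The 3 Sertoli cells that held 108 of 148 tracer UMIs all came from the Meioc-null libraries. Whether they bear on these calls was not tested. Of the listed genes outside the members 36 entries were tested in Sertoli cells and 0 were called, against 5 at an unadjusted p under 0.05. Over all genes tested in Sertoli cells 189 of 6472 had an unadjusted p under 0.05 by edgeR.

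In interstitial stromal cells no member had a UMI in 25% of cells, so none was tested. There edgeR and DESeq2 called 0 of 4307 genes (a background of 0%), 77 had an unadjusted p under 0.05 by edgeR, and 15 were called with batch as a block. On simulated counts with the same depths, 61% of genes changed 2-fold and 99% of those changed 4-fold were recovered in Leydig cells, with 15 unchanged genes called. In stromal cells 91 and 100% were recovered, with 12 unchanged genes called. The counts were drawn with the spread that edgeR had estimated and without a batch difference, so recovery in the real counts may be lower.

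The genes whose levels most resembled the summed 10 genes over 27 class-by-library sums were Cst8, Oxa1l, Adh1, Ass1, Acad8, Hao2, Ccs and Mgarp, with Pearson's r from 0.915 to 0.940 among 2346 genes. The sums share libraries and depth, so r is a description. Cst8 had 182 CPM in Leydig cells and at most 16.0 in another class, Ass1 428 and 26.7, and Mgarp, a mitochondrial protein, 1077 and 292. Hao2 (94.7 and 0.752 CPM) had served to name the class.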

How the data were processed

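Testes from 4 pups at postnatal day 15 had been profiled with the 10x 3′ v3.1 assay. The authors made the deposited UMI counts with Cell Ranger 4.0.0 on mm10-2020-A (GRCm38); no column outside the 4 libraries was present. The authors kept cells with more than 1000 genes and under 10% mitochondrial UMIs, and removed doublets with another caller; the first 2 limits were applied here, and barcodes above Scrublet's own threshold were removed. That threshold was chosen after seeing the data, because the fixed rate first planned, 0.8% per 1000 barcodes, removed many cells of the Leydig class. Under the planned rate that class held 190 of 26227 cells, against 314 of 28385 here, and 14 against 48 cells in Meioc-null 1. The planned rate is given as an alternative.

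Cells were clustered in scanpy 1.11.5 (2000 variable genes without the members and other steroidogenic genes, 30 principal components, 20 neighbours, Leiden resolution 1.0, somatic cells again at 1.0), and named from marker lists, with at least 3 markers seen in 25% of cells. Raw counts were summed per library and class and tested with edgeR 4.0.16 (quasi-likelihood, TMM, genotype as the only term), and with DESeq2 1.42.0 as an alternative. SEs are the log2 fold change over the root of F. A batch holds a littermate pair per the labels, so batch numbers pair the libraries; deviations of same-numbered libraries from their group means correlated at r = 0.0519 over 7024 genes. Depth of the tests was 5468421 UMIs in the Leydig class, and intervals cover counting error only.

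The members and lists were chosen with earlier results of these data known. Named in the text are all 10 members, each called gene of the lists, and up to 4 genes per list with the highest Leydig level, except 1 that is not reported here; likeness names the 8 genes with the highest Pearson's r on log2(CPM + 1) over classes of at least 20 cells, with at least 50 CPM in Leydig cells of every library. Genes named beyond this rule were chosen after their values were seen. Tests were tried on simulated counts. Gene positions are GENCODE vM21 on GRCm38.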

Additional observations from a re-analysis of the deposited data

Results flagged for a closer look

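Barcodes outside the cells analysed also held many UMIs of the 10 genes. Of 338 barcodes with at least 10 UMIs from at least 3 of the 10 genes, 54 (16.0%) were left out by the limits on genes and mitochondrial share: 13 had 1000 or fewer genes and 41 had 10% or more mitochondrial UMIs. The share left out was 17.9 and 11.8% in the wild type libraries and 15.8 and 18.2% in the Meioc-null libraries. A further 10 were marked as doublets. Of the 274 kept, 240 were in the Leydig class and 21 in unnamed clusters. This count has no control sample to set it against, and its cause was not tested.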

How the results depend on the processing

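Star kept its direction under every alternative run and lost its call only with a 5% mitochondrial limit. In Leydig cells 99 genes were called; DESeq2 called 46, no filter on low counts 161, the replicate block (litter pairs) 54, removal of the top Scrublet scores, the doublet step first planned and replaced after seeing the data, 26, and mitochondrial limits of 5 and 20% called 42 and 229. Leaving out each library gave 77 to 153, the highest without wild type 1. Of these calls, 53 of 54 under the block and 46 of 46 under DESeq2 were among the 99. In Sertoli cells, with 1 gene called, no filter gave 99, a stricter filter 9, the replicate block 24, the top Scrublet scores removed 5, no doublet removal 0, both mitochondrial limits 19, listed genes allowed among the variable genes 9 and resolution 2.0 gave 2; leaving out each library gave 0 (either wild type library) to 8 (Meioc-null 2). In interstitial stromal cells, with 0, no filter gave 18, a stricter filter 3, the replicate block 15, and leaving out each library 0 to 9 (without wild type 2). The share of Leydig cells was 0.724% with the top Scrublet scores removed and 1.87% with a 5% mitochondrial limit. Their summed level was 2030 CPM with a 5% limit, 6463 with 20% and 5968 at resolution 2.0, and the germ cell level was 0.651% of it with a 5% limit. Directions turned only for members that were not called. Hsd3b1 was 0.33 with a 5% limit, Srd5a1 −0.013 without a filter, −0.0059 with the replicate block and −0.011 without the 2 deepest Leydig cells (chosen after seeing the data), and Nr5a1 in Sertoli cells −0.084 with a 20% limit. Leaving out each library gave −0.36 to 0.58 for Cyp11a1, −0.97 to 0.078 for Hsd3b1, −0.86 to 1.04 for Insl3, −0.91 to 0.018 for Lhcgr, −0.44 to 0.40 for Srd5a1 and −0.18 to 0.20 for Nr5a1 in Sertoli cells. The block changed no call of a member; of the listed genes it ended that of Drd4 in Leydig cells and added Cebpb in stromal cells. Other causes were not tested. A lone library left in a genotype was assumed to vary like the other genotype. Hsd17b3, with 21 UMIs in Leydig cells, and Hsd17b1, with 1, were tested there only without a filter.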

Other observations

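Among the genes called in Leydig cells but in none of the lists, chosen after their values were seen for their low p, most were higher in Meioc-null. Pde10a, a phosphodiesterase of cyclic nucleotides, had 4.81 and 1.86 CPM (wild type) against 123 and 90.9 CPM (Meioc-null) (log2 fold change −5.03, SE 0.36). Arhgap28 had 8.66 and 13.7 against 100 and 118 CPM (−3.22, SE 0.27). Alas1, the first enzyme of heme synthesis, had 105 and 110 against 479 and 679 CPM (−2.41, SE 0.22, edgeR adjusted p = 6.15e-08). Slc7a1, an amino acid transporter, had 35.6 and 29.8 against 171 and 109 CPM (−2.03, SE 0.24). Higher in wild type were Fhl2, with 187 and 179 against 63.6 and 51.0 CPM (1.73, SE 0.21), and Ccn2, with 160 and 171 against 46.0 and 20.7 CPM (2.51, SE 0.27).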
